A study of Mus musculus with 6 samples.

Results

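Imprinted genes are expressed from only the maternal or only the paternal chromosome, in most cases according to a methylation mark set in the egg or the sperm. Many of them act on growth before and shortly after birth. As a broad rule, the paternally expressed genes promote growth and the maternally expressed ones restrain it, and their RNA usually falls steeply in the weeks after birth.

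The expression of 10 imprinted growth genes was compared in sciatic nerves of control mice and Dok6 mutant mice at postnatal day 3 (P3). The members were the rows of the deposited count table with the gene names H19, Meg3, Rian, Mirg, Dlk1, Peg3, Peg10, Cdkn1c, Plagl1 and Grb10. Each name matched 1 row, so that 10 of the 54532 genes in the table are described, and all 10 passed the filter on low counts, which left 17099 genes. H19, Meg3, Rian, Mirg, Cdkn1c and, outside neurons, Grb10 are known to be expressed from the maternal allele, and Dlk1, Peg3, Peg10 and Plagl1 from the paternal allele. Counts per gene do not separate the alleles.

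The series holds 6 RNA-seq libraries of sciatic nerve, 3 from control mice (genotype WT) and 3 from Dok6 mutant mice (genotype Dok6 KO), with 1 library per mouse, all at P3. DOK6 is an adaptor protein that docks on receptor tyrosine kinases of neurotrophic signaling, including TrkC and Ret. The mutant allele lacks exon 3 of Dok6, removed by EIIA-cre, which acts in the early embryo, so the deletion is not limited to neurons or Schwann cells. The mice were kept on a C57BL/6 background, and their sex was not distinguished. The controls carried no conditional allele or treatment that the labels name.

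The libraries held between 17699904 and 18678170 counts. Dok6 was at 11.9 to 17.8 counts per 1000000 counts of the scaled library (CPM) in control nerves and at 5.78 to 7.26 CPM in the mutants (log2 fold change -1.23, edgeR's quasi-likelihood test, Benjamini-Hochberg adjusted p = 0.0118), with reads from outside exon 3 included. The libraries differed in the RNA of cell type markers. A hand-written list of 15 Schwann cell markers summed to 310 to 1869 CPM in control and 716 to 7048 CPM in mutant nerves. A list of 15 markers of central neurons summed to 1265 to 1447 CPM in control and 1032 to 1194 CPM in mutant nerves, among them Gad1, an enzyme of GABA synthesis, at 167 to 232 CPM over all libraries. A list of 9 astrocyte markers summed to 2297 to 2818 CPM in control and 1878 to 3643 CPM in mutant nerves, including the water channel Aqp4 at 224 to 532 CPM. GABA neurons and astrocytes belong to the brain and spinal cord, so the RNA of all 6 libraries goes in part against the label of sciatic nerve, and every value given here is for the libraries so labelled. What other tissue they hold was not tested. In bulk tissue, a difference in RNA per cell and a difference in the number of cells of a type cannot be told apart.

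Several members are not translated, and 4 of them contain or span precursors of microRNAs (miRNAs). H19 spans 142575529 to 142578143 on chromosome 7 (GRCm38, minus strand), 72.6 kb from Igf2, and its exon contains the hairpin of miR-675. The mature sequences from RefSeq (GRCm38.p6), at chr7:142577112-142577133 and chr7:142577078-142577099 on the minus strand, are shown because H19 was the member with the largest change. The capitals mark the seed, bases 2 to 8.
mmu-miR-675-5p: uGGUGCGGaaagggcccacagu
mmu-miR-675-3p: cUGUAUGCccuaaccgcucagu

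Mirg, on the plus strand of chromosome 12 from 109729764 to 109749460, spans 14 miRNA hairpins of RefSeq with 26 mature sequences. Meg3 contains 3 mature sequences of RefSeq and Rian spans 6. Of the 26 mature sequences in Mirg, 8 lie wholly in its annotated exons, the part of the gene on which reads were counted. The first 8 sequences are these, and the last 2 are the only sequences within the members that share a seed. The capitals again mark bases 2 to 8.
mmu-miR-134-5p: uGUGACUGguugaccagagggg
mmu-miR-134-3p: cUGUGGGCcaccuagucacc
mmu-miR-485-3p: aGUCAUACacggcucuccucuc
mmu-miR-377-5p: aGAGGUUGcccuuggugaauuc
mmu-miR-377-3p: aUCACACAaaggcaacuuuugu
mmu-miR-410-5p: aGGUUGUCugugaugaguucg
mmu-miR-410-3p: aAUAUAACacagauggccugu
mmu-miR-3072-3p: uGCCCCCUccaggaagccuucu
mmu-miR-453: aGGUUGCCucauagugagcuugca
mmu-miR-496a-5p: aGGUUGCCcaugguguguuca
The libraries measured the host RNAs and carry no value for a mature miRNA.

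H19 and Mirg were higher in Dok6 mutant nerves, and none of the other 8 members passed the test. H19 was 4.03-fold and Mirg 1.70-fold higher, while the other members differed by a log2 fold change between -0.38 for Peg10 and 0.53 for Dlk1. By edgeR's quasi-likelihood test at an adjusted p under 0.05, 2 of 10 members were called higher (8.62% of all genes tested) and 0 were called lower (6.01% of all genes tested). At an unadjusted p under 0.05, 4 members were higher (18% of all genes tested) and 2 lower (15.5%). DESeq2 called 3 members higher (10.6% of all genes tested) and 2 lower (8.95%). The median log2 fold change of the members was 0.14, against 0.01 for all 17099 genes. The values of the genotypes did not overlap for H19, Mirg and Dlk1, which were higher in every mutant mouse (19.6% of all genes tested), and for Rian and Peg10, which were lower in every mutant mouse (18.7% of all genes tested). For genes in either direction, 5 of 10 members did not overlap, against 38.2% of all genes tested.

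**Figure D1:**
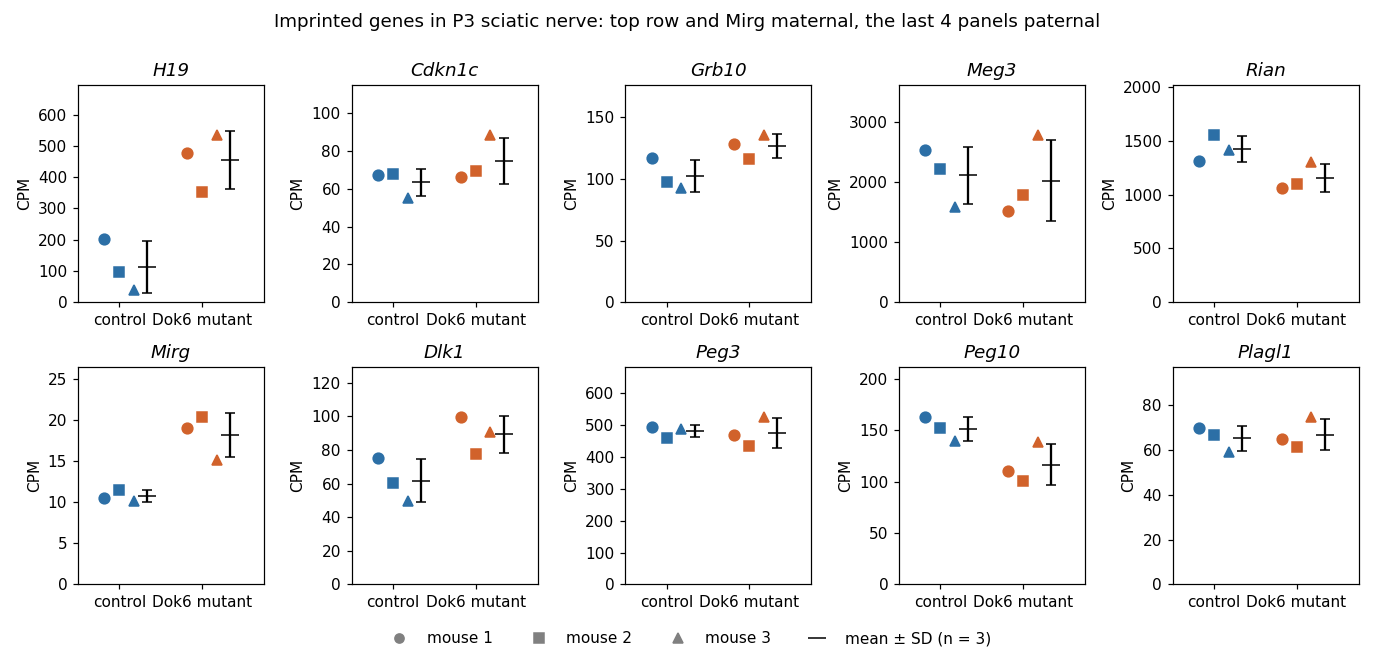
Levels of the 10 imprinted genes in CPM (each axis starts at 0) in the 3 control mice (blue) and 3 Dok6 mutant mice (orange), with the symbol giving the mouse and the black bar the mean ± SD. H19 and Mirg are separated between the genotypes, whereas Meg3, Peg3 and Plagl1 overlap.

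H19, a long noncoding RNA that restrains growth and is abundant in fetal mesoderm and muscle, was at 203, 95.7 and 39.8 CPM in control mice 1, 2 and 3 (3546, 1670 and 696 counts). It was at 479, 353 and 535 CPM in mutant mice 1, 2 and 3 (9236, 6471 and 10088 counts). Every mutant mouse was above every control mouse. The means were 113 ± 83.2 (SD, n = 3) CPM in control and 456 ± 93.1 (SD, n = 3) CPM in mutant nerves, and the log2 fold change was 2.01 (standard error, SE, 0.48, 95% interval 0.91 to 3.11, edgeR's quasi-likelihood test, adjusted p = 0.0300). H19 was thereby just past the absolute log2 fold change of 2 that the study used as its threshold, the only member to pass it (1.19% of all genes tested). The highest control was 5.11 times the lowest and the highest mutant 1.51 times the lowest, although the SD in CPM was slightly larger in the mutants. The control ratio was exceeded by 1.45% of the genes tested, where the median gene had a ratio of 1.25. The adjusted p was 0.129 without control mouse 2, 0.0704 without mutant mouse 1 and 0.0556 without mutant mouse 2, and the log2 fold change was 1.61 without control mouse 3 and 2.75 without control mouse 1. Of the 6 fits without 1 mouse, the fit without control mouse 1 was the only one in which H19 was called and past a log2 fold change of 2.

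Igf2, the neighbour of H19 on the same imprinted domain and a paternally expressed growth factor, had the same order of mice as H19 within each genotype. It was at 18.4, 5.04 and 1.26 CPM in control mice 1, 2 and 3 and at 17.7, 13.5 and 25.1 CPM in the mutants. Control mouse 1 lay within the range of the mutants, and the log2 fold change of 1.19 (SE 0.70, adjusted p = 0.266) did not pass the test. Without control mouse 1 its log2 fold change was 2.57 (edgeR's quasi-likelihood test, adjusted p = 0.0372). The value without control mouse 3 was 0.69 (same test, adjusted p = 0.376). Its exons overlap the near-identical same-strand gene Gm49394 and the antisense gene Igf2os, so its count is uncertain. The log2 ratio of H19 to Igf2 counts was 4.23 ± 0.76 (SD, n = 3) in control and 4.63 ± 0.18 (SD, n = 3) in mutant nerves, a difference of 0.39 (exact permutation test, two-sided, p = 0.60, and 0.60 adjusted over the 6 ratios).

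Marker lists of several cell types also differed between the genotypes or followed the order of mice seen for H19. A list of 16 markers of nerve fibroblasts and perineurium summed to 1312, 640.3 and 367 CPM in control mice 1, 2 and 3 and to 2467, 3308 and 2218 CPM in the mutants. All 16 genes had a positive log2 fold change, and 7 of them were called higher. Of all genes tested, 8.62% were called higher and 6.01% lower, which is the background for each count of markers given here. Col1a1, a collagen chain, was at 272, 73.2 and 17.7 CPM in controls, the same order as H19, and at 623, 1053 and 606 CPM in the mutants, the reverse of the order of H19, and it did not pass the test (adjusted p = 0.0537). The summed fibroblast list had that reversed order in the mutants too. A list of 9 endothelial markers summed to 368, 260 and 196 CPM in control and to 468, 348 and 535 CPM in mutant mice, and in each genotype the mice were in the order they had for H19. A list of 24 skeletal muscle markers summed to between 41.7 and 65.9 CPM in control nerves. Of these markers, 1 was at or below 3 counts in every library. Mutant mice 1, 2 and 3 were at 820.5, 461 and 181 CPM, each above every control and in a different order from H19. Of 19 muscle markers tested, 14 were called higher. Markers of dorsal root ganglion neurons summed to 264 to 308 CPM in control and 513 to 1318 CPM in mutant nerves, with 13 of 15 called higher. Of 15 Schwann cell markers 9 were called higher, of 10 proliferation markers 3 were called higher, and of 6 erythroid markers tested 4 were called lower. The part of these lists in the difference of H19 was not tested.

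**Figure D2:**
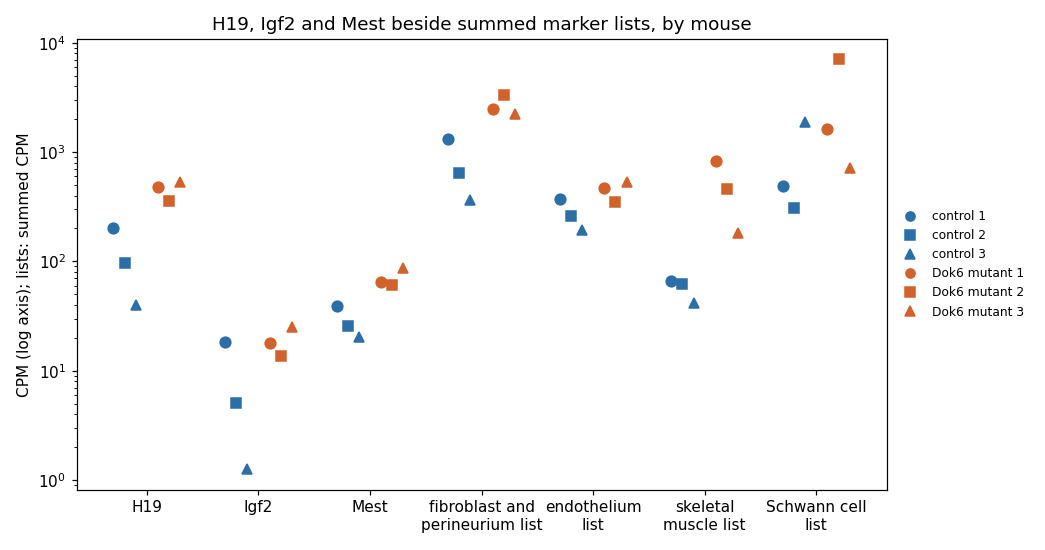
H19, Igf2 and Mest in CPM, and the summed CPM of 4 marker lists, in each mouse on a log axis (blue, control; orange, Dok6 mutant). Control mice 1, 2 and 3 are in descending order for the 3 imprinted genes and for the fibroblast, endothelium and muscle lists, while the Schwann cell list is highest in mutant mouse 2.

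Mirg, Meg3, Rian and Dlk1 belong to the Dlk1-Dio3 domain on chromosome 12. Meg3, Rian and Mirg are maternal noncoding RNAs read in the same direction from neighbouring units, and they are often described as parts of a long maternal transcript. Meg3 gives a long noncoding RNA, Rian hosts small nucleolar RNAs, and Mirg hosts miRNAs. Dlk1, from the paternal allele, encodes a transmembrane protein of the Delta/Notch family that keeps precursor cells undifferentiated. Of these 4 members, Mirg was called higher in Dok6 mutant nerves and the other 3 did not pass the test.

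Mirg was at 10.5, 11.5 and 10.1 CPM in control mice 1, 2 and 3 and at 19.1, 20.3 and 15.2 CPM in the mutants, from 177 to 373 counts per library. Every mutant was above every control, and the control mice differed by little. The log2 fold change was 0.76 (SE 0.15, 95% interval 0.42 to 1.11, edgeR's quasi-likelihood test, adjusted p = 0.0185). The adjusted p was 0.0781 without control mouse 2, 0.0559 without mutant mouse 1 and 0.0605 without mutant mouse 2.

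Rian was at 1312, 1552 and 1411 CPM in controls and at 1063, 1103 and 1305 CPM in the mutants. Every mutant was below every control, by a small margin for mutant mouse 3. The log2 fold change of -0.30 (SE 0.11, adjusted p = 0.105) did not pass the test, and the adjusted p was 0.0332 without mutant mouse 3 and 0.0376 with DESeq2. A same-strand transcript, Gm26945, overlaps exons of Rian, and its share of the reads is uncertain.

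Meg3 had the highest CPM of the members, which is not corrected for gene length, at 2529.6, 2227 and 1589 CPM in control mice 1, 2 and 3 and at 1516, 1784 and 2784 CPM in mutant mice 1, 2 and 3. The genotypes overlapped over nearly their whole range, with the lowest and the highest value both in mutant mice. The log2 fold change was -0.06, with a 95% interval from -0.61 to 0.49 (edgeR's quasi-likelihood test, adjusted p = 0.886). A difference of either sign within that interval remains possible. An antisense transcript overlaps exons of Meg3, and the use of strand in counting is not given in the sources used here.

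Dlk1 was at 75.3, 60.4 and 49.6 CPM in control mice 1, 2 and 3 and at 99.4, 77.8 and 90.6 CPM in the mutants. The lowest mutant was only just above the highest control. The log2 fold change of 0.53 (SE 0.15, adjusted p = 0.0523) missed the threshold narrowly, and the adjusted p was 0.0341 without control mouse 1 and 0.0114 with DESeq2.

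The ratio of Mirg to Rian compares 2 maternal RNAs of the domain within a library and does not depend on scaling. On the log2 scale it was -6.97, -7.07 and -7.12 in control mice 1, 2 and 3 and -5.80, -5.76 and -6.42 in the mutants. The difference of 1.06 separated the genotypes (exact permutation test, two-sided, p = 0.10, the smallest that 3 mice against 3 can give, and 0.20 adjusted over the 6 ratios computed). The ratio of Mirg to Meg3 overlapped between the genotypes, with control mouse 3 at -7.29 and mutant mouse 3 at -7.52. The difference was 0.84 (exact permutation test, p = 0.20, adjusted 0.30). For Dlk1 to Meg3, the difference was 0.63 without overlap (exact permutation test, p = 0.10, adjusted 0.20). For Rian to Meg3 the genotypes overlapped, with a difference of -0.22 (exact permutation test, p = 0.50, adjusted 0.60).

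**Figure D3:**
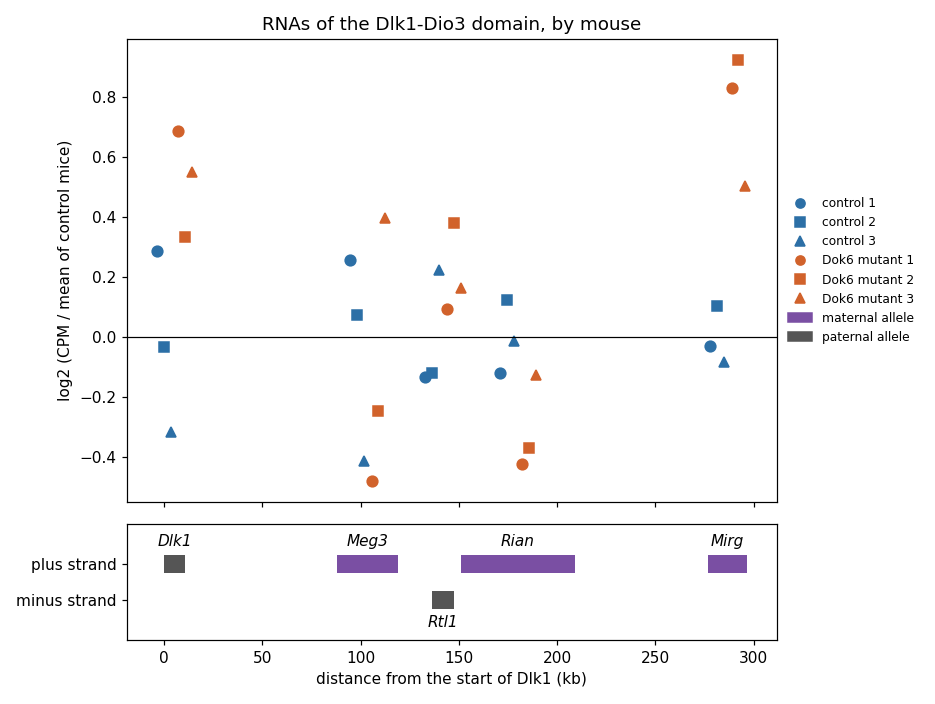
Upper panel, log2 of the CPM of each mouse over the mean of the 3 control mice for 5 RNAs of the Dlk1-Dio3 domain, placed at their distance in kb from the start of Dlk1. Lower panel, the genes by strand, coloured by the expressed allele. Mirg and Dlk1 lie above the controls in every mutant, Rian lies below them, and Meg3 spreads on both sides.

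Of the other genes of the domain, Rtl1, a retrotransposon-derived paternal gene antisense to maternal miRNAs, was at 6.08 to 7.78 CPM in control and 7.11 to 8.67 CPM in mutant nerves (log2 fold change 0.22, adjusted p = 0.419). Dio3, which encodes a thyroid hormone deiodinase, was at a low level, 0.818 to 1.77 CPM over all libraries, with 3 counts in a library corresponding to between 0.156 and 0.172 CPM. RefSeq gives 2 starts for Meg3 and 1 for Mirg. In the 300 bases that run from 250 before to 50 after the start, the first Meg3 window (chr12:109540746-109541045, plus strand, GRCm38.p6) has 13 CpG dinucleotides, the second (chr12:109545148-109545447, plus strand) has 1 and the Mirg window (chr12:109734731-109735030, plus strand) has 10, against a median of 7 over 32851 promoters. TGCCGC, the letters bound by ZFP57, a zinc finger protein that keeps the methylation of imprinted regions, was searched on both strands. It occurs in 11.6% of all these promoters, 1 time in the first Meg3 window, where it lies on the opposite strand and its complement is shown in capitals, and not in the second Meg3 window or the Mirg window. The first Meg3 window and the Mirg window are shown because Mirg was the called member of the domain and Meg3 is the first of its maternal RNAs. RefSeq starts Mirg within the GENCODE gene, and the Mirg window includes the miR-485-3p sequence shown before.
Meg3: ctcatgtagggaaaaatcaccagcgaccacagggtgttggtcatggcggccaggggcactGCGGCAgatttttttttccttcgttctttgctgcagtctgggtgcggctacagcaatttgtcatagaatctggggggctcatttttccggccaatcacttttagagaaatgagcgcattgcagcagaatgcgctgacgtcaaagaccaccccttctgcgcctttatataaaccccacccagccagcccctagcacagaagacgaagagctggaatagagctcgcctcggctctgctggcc
Mirg: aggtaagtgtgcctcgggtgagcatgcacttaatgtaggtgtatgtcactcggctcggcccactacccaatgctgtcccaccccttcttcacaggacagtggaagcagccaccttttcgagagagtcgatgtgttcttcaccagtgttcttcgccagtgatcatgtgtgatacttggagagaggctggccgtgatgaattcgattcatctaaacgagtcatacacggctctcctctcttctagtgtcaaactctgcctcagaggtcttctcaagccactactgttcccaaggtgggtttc

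Peg10 and Sgce are paternally expressed in opposite directions on chromosome 6, from starts that lie 99 bases apart. Peg10 derives from a retrotransposon and is needed for the placenta, and Sgce encodes a sarcoglycan whose loss causes a movement disorder. Peg10 was at 162, 153 and 139 CPM in control mice 1, 2 and 3 and at 110.3, 100.4 and 139 CPM in the mutants. The mutants were lower, although mutant mouse 3 was almost level with control mouse 3, and the log2 fold change of -0.38 (SE 0.12, adjusted p = 0.0697) did not pass the test. The adjusted p was 0.0171 without mutant mouse 3 and 0.0278 with DESeq2. Sgce was higher in the mutants, at 32.9, 30.8 and 27.9 CPM against no more than 20.8 CPM in any control mouse (log2 fold change 0.61, SE 0.11, adjusted p = 0.0144). The adjusted p of Sgce was 0.0796 without control mouse 2. The log2 ratio of Sgce to Peg10 was between -3.01 and -2.74 in control and -1.75, -1.70 and -2.31 in mutant mice, a difference of 1.00 without overlap (exact permutation test, two-sided, p = 0.10, and 0.20 adjusted over the 6 ratios).

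Peg3 and Plagl1, the paternal genes for zinc finger proteins, had similar levels in both genotypes. Peg3 was at 495, 461 and 488 CPM in controls and at 468, 434 and 525 CPM in the mutants. Its log2 fold change was -0.02 with a 95% interval from -0.23 to 0.20 (adjusted p = 0.922), the narrowest interval among the members. Plagl1, a transcription factor that regulates other imprinted genes including H19 and Cdkn1c, was at 69.9, 66.9 and 59.0 CPM in controls and at 64.8, 61.4 and 74.7 CPM in the mutants (log2 fold change 0.04, 95% interval -0.20 to 0.28, adjusted p = 0.837). For Peg3 the highest and the lowest mouse were both mutants, and the genotypes of both genes overlapped. Among the neighbours of Peg3, the maternal zinc finger gene Zim1 was higher in every mutant (log2 fold change 0.34, adjusted p = 0.0469), a call lost in each of the 6 fits without 1 mouse (adjusted p 0.0727 to 0.143). Usp29, paternal like Peg3, was at 84.2 to 96.1 CPM in control and 67.3 to 88.3 CPM in mutant nerves (adjusted p = 0.144).

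Cdkn1c and, outside neurons, Grb10 are maternal genes, and both restrain growth through protein interactions. Cdkn1c, an inhibitor of cyclin-dependent kinases that takes cells out of the cell cycle, was at 67.5, 67.6 and 55.1 CPM in controls and at 66.4, 69.3 and 88.4 CPM in the mutants. Mutant mice 2 and 3 were above every control, mutant mouse 2 by a small margin, while mutant mouse 1 lay within their range. The log2 fold change was 0.24 (95% interval -0.07 to 0.54, adjusted p = 0.247). An antisense transcript, Gm44732, overlaps its exons. Grb10, an adaptor that binds receptor tyrosine kinases and damps signaling from the insulin and insulin-like growth factor receptors, was at 117, 97.9 and 92.6 CPM in controls and at 129, 116 and 135 CPM in the mutants. Control mouse 1 slightly exceeded mutant mouse 2, and the log2 fold change of 0.31 (SE 0.10, adjusted p = 0.0801) did not pass the test. The adjusted p of Grb10 was 0.0423 without control mouse 1.

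**Figure D4:**
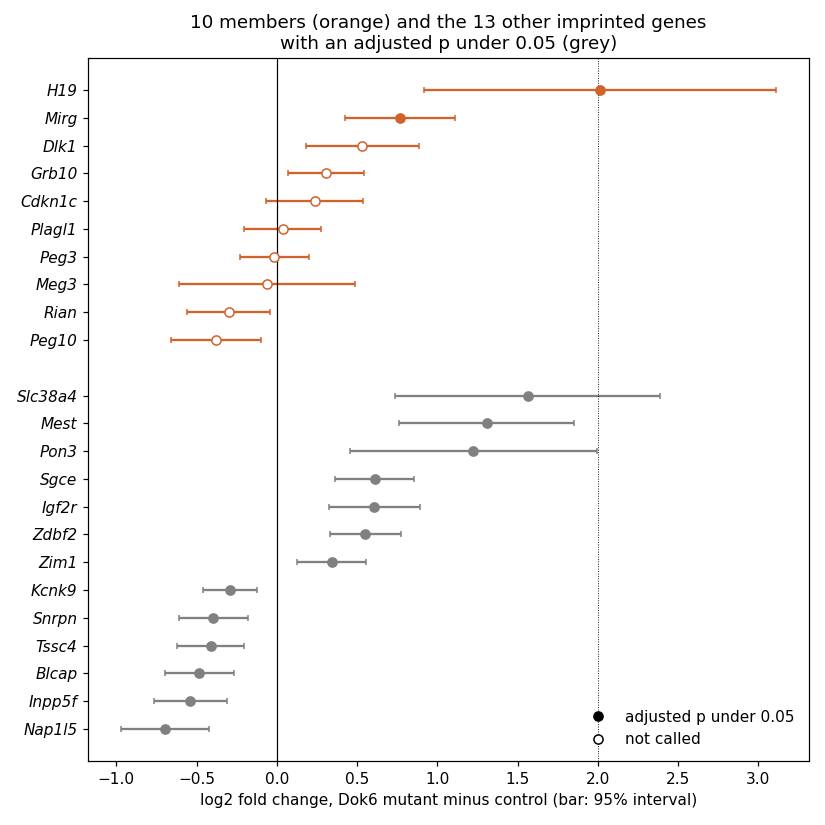
Log2 fold changes (Dok6 mutant minus control) with 95% intervals for the 10 members (orange) and the 13 other imprinted genes with an adjusted p under 0.05 (grey). Filled points have an adjusted p under 0.05, and the dotted line marks a log2 fold change of 2. H19 lies at 2.01 with the widest interval of the members, and the called genes lie on both sides of 0.

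Levels between genes were compared per length, as CPM per kb of the deposited gene length (RPKM). In control nerves Meg3 was highest at 87.8 to 140 RPKM, followed by Rian at 72.0 to 85.1 RPKM. H19, at 16.2 to 82.7 RPKM, overlapped Rian, Peg3 at 34.6 to 37.2 RPKM, Cdkn1c at 27.0 to 33.1 RPKM and Peg10 at 20.9 to 24.4 RPKM. Peg3, Cdkn1c and Peg10 did not overlap each other. Grb10 at 10.2 to 12.9 RPKM and Dlk1 at 8.77 to 13.3 RPKM could not be separated, nor could Dlk1 and Plagl1 at 7.54 to 8.95 RPKM. Mirg was lowest at 1.39 to 1.58 RPKM. In mutant nerves H19, at 143 to 217 RPKM, had the highest mean and overlapped Meg3 at 83.8 to 154 RPKM.

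A hand-written list of 61 other imprinted genes had members in both directions. Of these, 59 were in the table and 53 passed the filter, 7 were higher (13.2%, against 8.62% of all genes tested) and 6 were lower (11.3%, against 6.01%) with an adjusted p under 0.05 in edgeR's quasi-likelihood test. Their median log2 fold change was -0.08, with a range from -0.70 to 1.56. Without control mouse 2, 0 of them were called in either direction, when only 56 genes of the whole table were higher and 12 lower. In the domains of the members, 23 were tested, of which Sgce, Pon3 and Zim1 were higher and Tssc4 was lower, with 19 not called. Of the 6 fits without 1 mouse, Pon3 was called in 1 and Tssc4 in 2.

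Among genes of other domains, Mest, Slc38a4, Igf2r and Zdbf2 were higher. Mest, a paternal gene for a hydrolase that is abundant in mesoderm and enlarging fat cells, was at 39.4, 25.7 and 20.2 CPM in control mice 1, 2 and 3 and at 64.2, 60.3 and 86.5 CPM in the mutants, the same order of mice as H19 within each genotype. Its log2 fold change was 1.31 (SE 0.24, adjusted p = 0.0153), with an adjusted p of 0.0864 without control mouse 2. Slc38a4, an amino acid transporter, was higher at a low level (log2 fold change 1.56, adjusted p = 0.0275, 21 to 114 counts). Igf2r, the maternal receptor that clears IGF2, was at 38.1 to 50.1 CPM in control and 60.0 to 74.5 CPM in mutant nerves (log2 fold change 0.61, adjusted p = 0.0208), and the antisense gene Airn overlaps its exons. Zdbf2, a paternal zinc finger gene, had a log2 fold change of 0.55 (adjusted p = 0.0142).

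The genes called lower in other domains were Nap1l5, Inpp5f, Blcap, Snrpn and Kcnk9, the last of these outside the naming rule and named after its values were seen. Nap1l5, a paternal gene of the nucleosome assembly family, was at 639, 775 and 852 CPM in controls and at 493, 427 and 479 CPM in the mutants. Every mutant was below every control, with a log2 fold change of -0.70 (SE 0.12, adjusted p = 0.0139). Inpp5f, an inositol phosphatase with a paternal short transcript, fell by 0.54 on the log2 scale (adjusted p = 0.0160), Blcap by 0.48 (adjusted p = 0.0185) and Snrpn, a splicing protein abundant in neurons, by 0.40 (adjusted p = 0.0295). The counts of several of these genes are uncertain. Antisense genes overlap exons of Blcap (Nnat), Nap1l5 (Herc3), Mest (Copg2 and Gm44296) and Tssc4 (Trpm5), same-strand pseudogenes overlap those of Inpp5f, Gm3852 is near-identical to Blcap, and Snrpn overlaps Snurf and Gm38393. Kcnk9, a potassium channel, had a log2 fold change of -0.29 (adjusted p = 0.0350). Of the 6 fits without 1 mouse, Kcnk9 was called in 1, Snrpn and Slc38a4 in 2 and Blcap in 3. Over the same libraries, 6 of 14 tested markers of central neurons were lower in every mutant mouse and 3 were called lower (18.7% and 6.01% of all genes tested). In the same list Slc17a7, a glutamate transporter of excitatory neurons, was called higher (log2 fold change 3.49, adjusted p = 0.00918). Their part in these decreases was not tested.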

How the data were processed

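RNA of P3 sciatic nerves was sequenced from NEBNext Ultra libraries (the kit per the labels; the study's methods name its directional version, which marks strand), and the authors deposited whole-number counts per gene, not normalized, with a gene length. The submitters' processing notes name the mm10 build. Aligner, counting tool and whether counting used strand are not given in the sources used here. Columns were matched to samples by genotype and mouse number.

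Genes were kept with filterByExpr, scaled by TMM and tested in edgeR 4.0.16 (R 4.3.3) with glmQLFTest on genotype over all 6 libraries, with Benjamini-Hochberg adjustment over 17099 genes. CPM use the TMM-scaled totals. Standard errors came from the F statistic. The study calls the controls littermates without saying which mice share a litter, so litter could not enter the fit. The detection floor was 3 counts and covers counting error only. The alternatives were DESeq2 1.42.0, limma 3.58.1 voom, RLE and upper-quartile scaling, other filters, a replicate block and leaving out each mouse. The fits were first tested on simulated counts.

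Positions came from GENCODE M21 on GRCm38 (54409 of 54532 identifiers matched), and BLAST 2.17.0 found no transcript of another gene at 95% identity over 200 bases for any member. Promoter windows were present for Peg3, Plagl1, Grb10, Dlk1, Meg3, Rian and Mirg, and miRNAs were matched by position.

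The members and gene lists were chosen with earlier results of these data known. The named genes were all members, Dok6, the other imprinted genes of the same domains, the 8 further imprinted genes with the smallest adjusted p at 1 CPM or more in every library, and for the 3 members with the highest mean CPM the 2 genes nearest in pattern. Other genes were named after their values were seen.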

Additional observations from a re-analysis of the deposited data

How the results depend on the processing

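The signs of the log2 fold changes of H19, Mirg, Dlk1, Grb10, Cdkn1c, Rian and Peg10 held in all 13 alternative fits. Called members that were higher numbered 0 with the replicate block and 0 to 4 across the fits without 1 mouse, against 2. Called members that were lower numbered 2 with DESeq2, 1 with no filter and 0 to 2 without 1 mouse. The count past a log2 fold change of 2 was 0 with the replicate block and 0 to 1 without 1 mouse. Other imprinted genes called higher numbered 4 with the block and 0 to 6 without 1 mouse, and those called lower numbered 11 with DESeq2, 1 with the block and 0 to 10 without 1 mouse. With the block the adjusted p was 0.0535 for H19 and 0.0526 for Mirg. Same-numbered mice had correlations of their deviations of -0.01, -0.21 and -0.29, so the numbers did not pair the mice, and lost calls under the block are not read as weaker effects. Without 1 mouse, the log2 fold change ranged from -0.36 to 0.11 for Meg3, from -0.0936 to 0.0459 for Peg3, from -0.0492 to 0.10 for Plagl1, from -0.22 to 0.0735 for Pon2, from -0.31 to 0.22 for Asb4, from -0.48 to 0.51 for Ascl2, from -0.0834 to 0.0869 for Cd81 and from -0.33 to 0.51 for Ddc. Limma voom gave -0.0375 for Asb4, 0.25 for Ascl2 and -0.11 for Ddc, and the block -0.0352, 0.10 and -0.0521. Counts over all genes moved too, from 1474 higher and 1028 lower to 432 and 130 with the block, 1815 and 1530 with DESeq2, 56 and 12 without control mouse 2, and 1671 and 1233 without mutant mouse 3. The cause of these changes was not tested. At 3 mice a genotype, the intervals of Meg3 and H19 are the widest among the members.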

Other observations

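The imprinted domain of Snrpn and Ube3a on chromosome 7, whose human counterpart is affected in Prader-Willi and Angelman syndromes, was looked at after its values were seen. Snrpn was the only one of 7 of its genes looked at that passed the test, with a log2 fold change of -0.40 (edgeR's quasi-likelihood test, adjusted p = 0.0295), and its count is uncertain because it overlaps near-identical transcripts of Snurf and Gm38393. The paternal genes Ndn, Magel2 and Mkrn3 had log2 fold changes of -0.24, -0.23 and -0.33, with adjusted p-values of 0.241, 0.148 and 0.0955. Magel2 and Mkrn3 were lower in every mutant mouse, as were 18.7% of all genes tested. Ndn, at 535 to 745 CPM in control and 493 to 603 CPM in mutant nerves, overlapped. Snhg14 and Peg12 had log2 fold changes of -0.10 and 0.25. Ube3a, the maternal ubiquitin ligase of the domain, was at 98.5 to 106 CPM in control and 104 to 110 CPM in mutant nerves, a log2 fold change of 0.09 (adjusted p = 0.420).

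Over the 6 libraries, the genes nearest in pattern to the 3 members with the highest mean CPM, not corrected for gene length, were found by the root mean square distance of log2 CPM centred on the mean. For Meg3 these were AC154486.3 at 0.0486 and Pfkp at 0.0710, for Rian Mllt11 at 0.0292 and St3gal5 at 0.0341, and for Peg3 Galnt9 at 0.0182 and Nck2 at 0.0192. Peg3 differed little between any of the libraries, so its nearest genes are ones that differed as little.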
